A study of Mus musculus with 5 samples.

Results

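The genes described here are 48 transcripts of the lysosome, the acidic compartment in which macrophages break down what they take up. They comprise 9 cathepsins and legumain, 2 cystatins, 14 hydrolases, 3 lipid transfer or activator proteins and 3 lysosomal membrane proteins. The others are 3 factors of the MiT/TFE family, *Tfeb*, *Tfe3* and *Mitf*, and 13 subunits of the vacuolar proton pump (V-ATPase). The 48 genes were given as a list of symbols that uses no expression value as a criterion. That list was drawn up with earlier results of these data known. All 48 were found among the 17058 genes with a count in any library. All were also among the 12576 genes that passed the filter on low counts and were tested. The RNA came from bone marrow–derived macrophages (BMDMs) of BALB/c mice, which per the study's methods were 6 to 12 weeks old and whose marrow was cultured with M-CSF. The macrophages had been cocultured for 48 hours with 4T1 cells, a BALB/c mammary carcinoma line, across a membrane that lets soluble factors through. The 4T1 cells were WT in 2 libraries and *Adam17*-/- in 3 libraries, abbreviated KO below. The deletion of *Adam17*, whose product is a protease that sheds membrane-anchored growth factors and cytokines, concerned the cancer cells, and the macrophages kept the gene. All 3 KO titles carry the same knock-out designation, 2.8, which is treated here as a single knock-out line although the labels do not explain it, and no macrophages cultured without cancer cells were analyzed here.

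Lysosomal proteases and hydrolases are made as precursors and work at the low pH that the V-ATPase maintains by pumping protons at the cost of ATP. Cathepsins and legumain cut proteins, including antigens and matrix proteins taken up by the cell, and the hydrolases remove sugars, lipids and sulfates from their substrates. TFEB, TFE3 and MITF are related transcription factors that bind short E-box sequences in the promoters of many lysosomal genes, and macrophages are known for a high content of lysosomal enzymes.

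Library totals ranged from 14658694 to 20788373 counts, and the first principal component, which separated WT from KO, held 63.0% of the variance. The second, with 16.9%, separated the WT libraries from each other. *Adam17* itself, read in macrophage RNA, stood at 198 and 200 normalized CPM (counts scaled to a common library size) in WT and at 152 to 164 CPM in KO, which does not test the deletion in the 4T1 cells. Markers of epithelial cells summed to 11.5 to 14.3 CPM in every library, and only *Cdh1* of the 10 passed the filter on low counts. The labels do not say that replicates came from separate mice or cultures, so every p-value measures the spread between these samples, which may be technical.

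Most of the lysosomal transcripts that differed were lower in macrophages cocultured with *Adam17*-/- cells. With edgeR's quasi-likelihood test, a call being an adjusted p of 0.05 or less, 24 of the 48 genes were lower, 3 were higher and 21 were not called. Over all genes tested, 16.8% were called lower and 14.9% higher. Among the 2279 genes with a mean of 100 CPM or more, 32.5% were called lower and 12.2% higher, and of the 37 lysosomal genes at that level 20 were called lower and 1 higher. The changes were small. The 24 lower genes fell by 0.24 (*Atp6v1c1*) to 0.93 (*Atp6v0c*) on the log2 scale, and the median over all 48 was -0.29 beside 0.01 over all genes tested. No gene of the set was called lower at a 2-fold change or more by edgeR, DESeq2 or limma (0 also at an unadjusted p under 0.05, beside 0.867% of all genes by edgeR), and *Atp6v0d2* was the only gene called higher at that size (3.36% of all genes).

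In 31 of the 48 genes every KO library was below both WT libraries, in 5 every KO library was above, and in 12 the groups overlapped. Over all genes tested the shares were 29.7% below and 28.4% above. Of all counts, the 48 genes together took 5.44% and 4.74% in WT and 4.24%, 4.62% and 4.42% in KO. The KO libraries were therefore below both WT libraries in this sum as well, although KO replicate 2 came close to WT replicate 2.

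The scale of the libraries set part of these counts. With library totals alone in place of trimmed-mean (TMM) factors, the fold changes of all genes moved up by about 0.15, and 13 genes were called lower and 6 higher, beside 8.56% lower and 24% higher over all genes. Relative to the median of all genes the set's median was -0.30 under both scalings. A change of scaling moves all genes by nearly the same amount, so this equality does not test the decrease. Among genes with a mean of 100 CPM or more the median was -0.12, and over the 37 lysosomal genes of that class it was -0.32. Leaving out KO replicate 1 left 9 genes called lower (7.42% of all genes) and leaving out KO replicate 3 left 14 (9.97% of all genes).

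Markers of cell types moved with the same contrast, beside 16.8% of all genes called lower, 14.9% called higher and, at a mean of 100 CPM or more, 32.5% called lower. Of 8 macrophage markers (median log2 fold change -0.59), 6 were called lower and 0 higher (0 also at an unadjusted p under 0.05, and by DESeq2 and limma), and their summed level was 27659 and 28416 CPM in WT and 17945 to 19906 CPM in KO. *Cd68*, itself a lysosomal glycoprotein (log2 fold change -0.93), *Adgre1* (-0.66), *Lyz2* (-0.65) and *Itgam* (-0.64) fell most, and *Cd68* and *Lyz2* also count among the further lysosomal genes below. Of 10 neutrophil granule markers (median 1.76), 8 were called higher and 0 lower (again 0 in each of these other tests), and their summed level was 324 and 394 CPM in WT and 1134 to 1311 CPM in KO, led by *Ltf* (2.18). Of 5 fibroblast markers tested 2 were called higher, and all 7 fibroblast markers listed summed to 35.0 and 41.2 CPM in WT and 40.6 to 121 CPM in KO. These values stand beside every decrease of a lysosomal group given below, and their part in it was not tested. In bulk RNA, fewer cells of a type and less RNA per cell cannot be told apart.

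**Figure D1:**
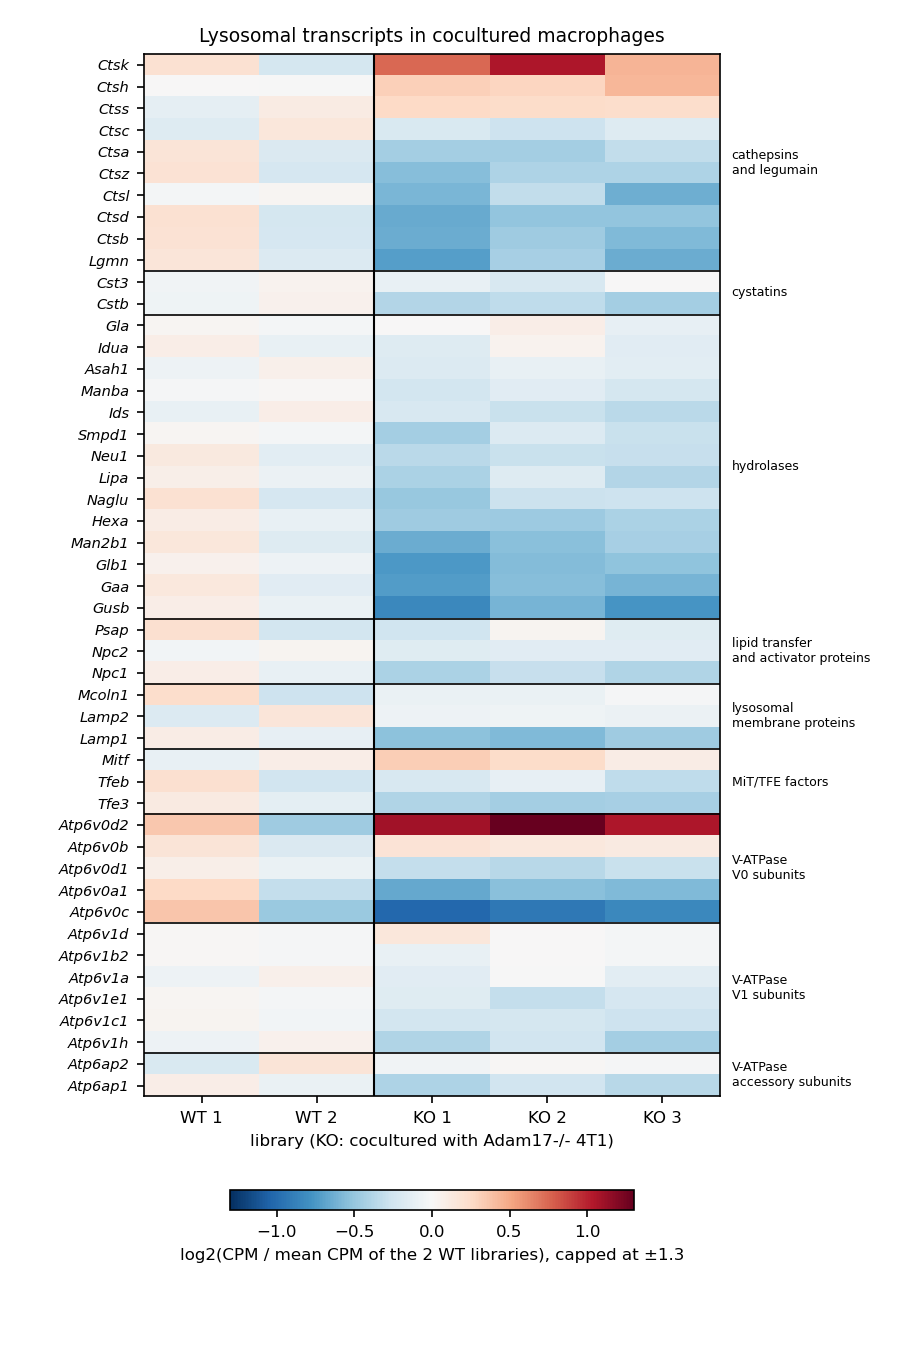
Level of each of the 48 genes in each library as log2 of its CPM over the mean CPM of the 2 WT libraries (color, capped at 1.3 in each direction), grouped by role, with WT libraries left of the vertical line and KO libraries right of it. Of the 48 rows, 31 are lower in all 3 KO libraries than in both WT libraries, and the strongest colors are those of *Atp6v0d2*, *Ctsk* and *Atp6v0c*.

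The cathepsin and legumain group has 10 genes, with calls in both directions. Per transcript length some of them are among the most abundant genes in the cells. *Ctsd*, the aspartic protease cathepsin D, had a mean of 5899 FPKM in WT and 4450 FPKM in KO and ranked 4th of 12576 genes. *Ctss*, the cysteine protease of antigen processing, ranked 8th with 2293 and 2994 FPKM. These FPKM are scaled by library totals and not by TMM factors. *Ctsk*, the matrix-degrading cathepsin K of osteoclasts, had the lowest level of the set, 5.43 FPKM in WT and 10.3 FPKM in KO. Of the 10 genes, 6 were called lower and 2 higher, beside 16.8% and 14.9% of all genes. Among genes with a mean of 100 CPM or more, 32.5% were called lower and 12.2% higher. In every one of the 10 genes the WT and KO libraries were apart. In 7 KO was below and in 3 KO was above, beside 29.7% and 28.4% of all genes.

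*Ctsd* stood at 13794 and 10283 CPM in WT and at 7640, 8433 and 8461 CPM in KO. The WT libraries differed more from each other than the KO libraries did, and the lower WT library was still above all KO libraries. Group means were 12039 ± 2483 CPM in WT (SD, n = 2) and 8178 ± 466 CPM in KO (SD, n = 3). The log2 fold change was -0.56 with a standard error (SE) of 0.13 and an edgeR adjusted p of 0.011.

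*Ctsb*, a cysteine protease with both endopeptidase and carboxypeptidase activity, stood at 8643 and 6534 CPM in WT and at 4848, 5521 and 5088 CPM in KO. Its log2 fold change was -0.56 (SE 0.13, edgeR adjusted p = 0.010). As for *Ctsd*, WT replicate 1 was the highest library and the groups did not overlap. *Lgmn*, legumain or asparaginyl endopeptidase, which processes several cathepsins, stood at 1880 and 1483 CPM in WT and at 1026, 1248 and 1072 CPM in KO. With -0.59 (SE 0.12, edgeR adjusted p = 0.0068) it had the largest decrease of the group.

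The other genes called lower were *Ctsl*, a broadly acting endopeptidase, *Ctsz*, a carboxypeptidase, and *Ctsa*, which also protects β-galactosidase and neuraminidase as a carrier, with log2 fold changes of -0.51, -0.45 and -0.40. *Ctsl* differed from the others in that its WT libraries were close to each other, at 3127 and 3221 CPM, against 2048 to 2542 CPM in KO. *Ctsc*, which activates granule serine proteases, was below WT in all KO libraries by a narrow margin, with its nearest libraries at 970 CPM each, and was not called (-0.21, edgeR adjusted p = 0.15).

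Cathepsins K and H went the other way. *Ctsk* stood at 10.05 and 7.52 CPM in WT and at 14.8, 18.2 and 11.97 CPM in KO, a low level at which every KO library nevertheless exceeded both WT libraries. Its log2 fold change was 0.76 (SE 0.19, edgeR adjusted p = 0.016). *Ctsh*, an aminopeptidase, is given because it was 1 of the 3 genes called higher, a choice made after its values were seen. It had 226 ± 1.42 CPM in WT (SD, n = 2) and 286 ± 15.7 CPM in KO (SD, n = 3), and its log2 fold change was 0.34 (SE 0.082, edgeR adjusted p = 0.013). *Ctss* had 3140 ± 345 CPM in WT and 3709 ± 38.3 CPM in KO, a log2 fold change of 0.24 that was not called (edgeR adjusted p = 0.087). It was called higher by DESeq2 (DESeq2 adjusted p = 0.045) and with library totals alone (edgeR adjusted p = 0.019). By limma on log2(FPKM + 1) it was not called (limma adjusted p = 0.051). *Ctsk* and *Ctss* are neighbors on chromosome 3, 17398 bases apart.

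The cathepsin and legumain genes together held 3.22% and 2.80% of all counts in WT and 2.40%, 2.59% and 2.50% in KO. Without KO replicate 1, 1 of the 10 genes was called lower, beside 7.42% of all genes. The fold changes of the genes that lost their call remained close to those with all libraries, at -0.49 for *Ctsb* and *Ctsd*, -0.45 for *Ctsl*, -0.38 for *Ctsz* and -0.35 for *Ctsa*.

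**Figure D2:**
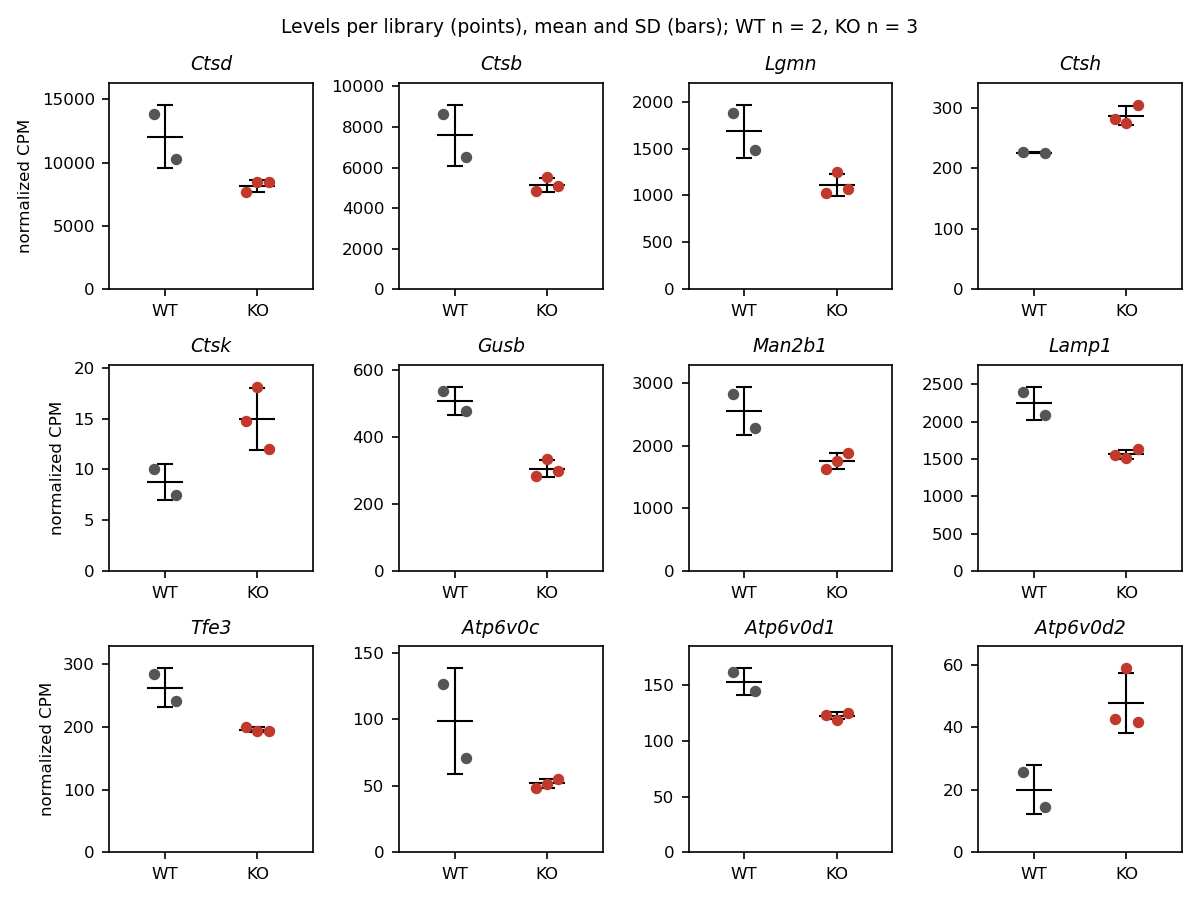
Normalized CPM of 12 genes in each library (points), with the group mean and SD (bars), WT coculture in gray and KO coculture in red. *Atp6v0d2*, *Ctsk* and *Ctsh* are higher in all KO libraries than in both WT libraries, the other 9 genes are lower, and the WT libraries of *Ctsd*, *Ctsb* and *Atp6v0c* lie far apart.

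Macrophages also make inhibitors of these proteases, and of the 2 cystatins measured 1 was called lower, beside 16.8% of all genes and 32.5% of those with a mean of 100 CPM or more. *Cstb*, the intracellular inhibitor cystatin B, stood at 215 and 233 CPM in WT and at 172, 178 and 165 CPM in KO, without overlap, and was called lower (log2 fold change -0.38, SE 0.081, edgeR adjusted p = 0.0076). *Cst3*, the secreted inhibitor cystatin C and per length the more abundant of the pair, stood at 502 and 533 CPM in WT and at 486, 449 and 519 CPM in KO. Its groups overlapped and it was not called (-0.10, edgeR adjusted p = 0.44).

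Of the 14 hydrolases, 8 were called lower, beside 16.8% of all genes and 32.5% of those with a mean of 100 CPM or more, and 0 were called higher (0 higher also at an unadjusted p under 0.05, and by DESeq2 and limma). All 14 fold changes were negative, with a median of -0.31, although *Gla*, *Idua* and *Asah1* turned positive with library totals alone. In 12 of the 14 every KO library was below both WT libraries, beside 29.7% of all genes. They took 0.587% and 0.530% of the counts in WT and 0.429%, 0.458% and 0.462% in KO.

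*Gusb*, β-glucuronidase, which trims glucuronic acid from glycosaminoglycans, showed the largest decrease of the group. It stood at 537 and 476 CPM in WT and at 284, 333 and 297 CPM in KO, so that the highest KO library lay well under the lower WT library. Group means were 507 ± 42.7 CPM in WT (SD, n = 2) and 304 ± 25.3 CPM in KO (SD, n = 3), and the log2 fold change was -0.74 (SE 0.095, edgeR adjusted p = 0.00092).

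*Gaa*, the acid α-glucosidase that degrades glycogen in lysosomes, stood at 323 and 266 CPM in WT and at 178, 201 and 194 CPM in KO (log2 fold change -0.63, SE 0.10, edgeR adjusted p = 0.0022). *Glb1*, β-galactosidase, stood at 262 and 241 CPM in WT and at 150, 170 and 175 CPM in KO (-0.61, SE 0.092, edgeR adjusted p = 0.0016). In both genes the gap between the groups was larger than the spread within either. *Man2b1*, the lysosomal α-mannosidase and per length the most abundant of the 14 (563 FPKM in WT, 429 FPKM in KO), stood at 2833 and 2282 CPM in WT and at 1630, 1750 and 1891 CPM in KO. Its log2 fold change was -0.54 (SE 0.11, edgeR adjusted p = 0.0070).

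The other hydrolases called lower were *Hexa*, the α subunit of β-hexosaminidase (-0.45), *Lipa*, the acid lipase that frees cholesterol from its esters (-0.31), *Neu1*, a sialidase (-0.31), and *Ids*, a sulfatase of heparan and dermatan sulfate (-0.28). The 6 that were not called ranged from -0.34 to -0.00. They were *Naglu* and *Idua*, which degrade glycosaminoglycans, *Manba*, a β-mannosidase, *Gla*, an α-galactosidase, and the sphingolipid enzymes *Smpd1* (acid sphingomyelinase) and *Asah1* (acid ceramidase). *Gla* was the flattest of the 14, with 131 ± 2.83 CPM in WT and 131 ± 9.15 CPM in KO.

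Of the 3 lipid transfer and activator proteins 1 was called lower, a share close to the 32.5% of all genes with a mean of 100 CPM or more. *Npc1*, the membrane protein that exports cholesterol from lysosomes, stood at 494 and 435 CPM in WT and at 349, 378 and 354 CPM in KO, without overlap (log2 fold change -0.37, SE 0.087, edgeR adjusted p = 0.012). *Npc2*, its soluble partner, had -0.15 and was not called. *Psap*, the precursor of the saposins that present sphingolipids to hydrolases, was the second most abundant gene of the set per length (3079 FPKM in WT, 3150 FPKM in KO). It stood at 9715 and 7148 CPM in WT and at 7037, 8638 and 7534 CPM in KO, where the groups overlapped (-0.12, edgeR adjusted p = 0.53).

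*Lamp1*, a heavily glycosylated protein of the lysosomal membrane, was called lower while its relative *Lamp2* and the calcium channel *Mcoln1* were not. *Lamp1* stood at 2404 and 2087 CPM in WT and at 1549, 1510 and 1630 CPM in KO, a log2 fold change of -0.52 (SE 0.094, edgeR adjusted p = 0.0037). *Lamp2* had 674 ± 110 CPM in WT and 644 ± 3.98 CPM in KO, and *Mcoln1* had 108 ± 25.7 and 104 ± 3.10 CPM. In both of these genes all KO libraries lay between the WT libraries.

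The V-ATPase has a membrane part, V0, through which protons pass, and a cytosolic part, V1, that hydrolyzes ATP. Of 7 further subunits tested outside the set, given below, 0 were called. Of the 13 subunits in the set, 6 were called lower, 1 was called higher and 6 were not called. Over all genes 16.8% were called lower and 14.9% higher. The median log2 fold change of the 13 subunits was -0.23. The share of all counts held by these 13 subunits, not by the whole pump, overlapped between the groups. It was 0.242% and 0.228% in WT and 0.226%, 0.236% and 0.225% in KO. With library totals alone, 2 subunits were called lower and 2 higher, beside 8.56% lower and 24% higher over all genes, and the median was -0.08.

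*Atp6v0d2*, a d subunit of V0 known from osteoclasts and other macrophage-derived cells, had the largest fold change of all 48 genes. It stood at 25.5 and 14.5 CPM in WT and at 42.7, 58.9 and 41.6 CPM in KO, so that every KO library was above both WT libraries although the WT libraries differed from each other. The log2 fold change was 1.25 (SE 0.23, edgeR adjusted p = 0.0039), and it was 1.71 without WT replicate 1 and 0.89 without WT replicate 2.

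Its paralog *Atp6v0d1*, the broadly expressed d subunit, moved the other way, from 162 and 145 CPM in WT to 123, 119 and 125 CPM in KO (-0.32, SE 0.083, edgeR adjusted p = 0.017). Per length *Atp6v0d1* remained the main form in every library. *Atp6v0d2* made up 9.07% and 5.96% of the summed FPKM of both d subunits in WT and 17.97%, 23.8% and 17.4% in KO.

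*Atp6v0c*, the proteolipid that forms the proton-carrying ring, had the largest decrease of the set, but also the widest WT spread on the log2 scale. It stood at 127 and 70.6 CPM in WT and at 48.7, 51.8 and 55.1 CPM in KO (-0.93, SE 0.19, edgeR adjusted p = 0.0072). Its log2 fold change was -0.45 without WT replicate 1 and -1.29 without WT replicate 2. Its estimated counts were not whole in any of the 5 libraries, as happens where reads are divided with another gene or with a transcript below the listing limit, so its level is uncertain. *Ctsa*, *Ctsb*, *Ctsl* and *Glb1* had the same property.

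*Atp6v0a1*, a subunit a isoform that lines the proton path, stood at 307 and 207 CPM in WT and at 162, 177 and 173 CPM in KO (-0.59, SE 0.14, edgeR adjusted p = 0.012), again with WT replicate 1 the highest. *Atp6v0b*, a further ring subunit, was the most abundant V0 gene of the set per length (305 FPKM in WT, 374 FPKM in KO). It stood at 339 and 265 CPM in WT and at 342, 333 and 327 CPM in KO. Its groups overlapped (0.15, edgeR adjusted p = 0.32). *Tcirg1*, a V-ATPase subunit outside the set, had 1449 CPM in WT and 1466 CPM in KO and was not called (0.02, edgeR adjusted p = 0.93).

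Of the 6 V1 subunits, 2 were called lower, beside 16.8% of all genes, and 4 were not called. *Atp6v1h*, a regulatory subunit, stood at 38.5 and 41.9 CPM in WT and at 30.7, 33.9 and 29.6 CPM in KO (-0.36, SE 0.098, edgeR adjusted p = 0.022). *Atp6v1c1*, of the stalk that joins V1 to V0, stood at 110 and 105 CPM in WT and at 91.2, 91.9 and 89.6 CPM in KO (-0.24, SE 0.078, edgeR adjusted p = 0.039). Both were without overlap between groups, and *Atp6v1c1* was the smallest change called among the 48 genes. It was not called with DESeq2, and neither gene was called with library totals alone. The catalytic subunit *Atp6v1a* (-0.10), its partner *Atp6v1b2* (-0.04), the rotor subunit *Atp6v1d* (0.04) and the stalk subunit *Atp6v1e1* (-0.23) were not called. *Atp6v1b2* was the most abundant V1 gene of the set per length (88.1 FPKM in WT, 94.9 FPKM in KO). It stood at 253 and 248 CPM in WT and at 235, 251 and 246 CPM in KO, where the groups overlapped.

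Of the accessory subunits, *Atp6ap1* stood at 672 and 597 CPM in WT and at 480, 534 and 494 CPM in KO and was called lower (-0.34, SE 0.090, edgeR adjusted p = 0.019). *Atp6ap2*, also known as the prorenin receptor, had 175 ± 31.4 CPM in WT and 173 ± 3.72 CPM in KO and was not called (-0.02).

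**Figure D3:**
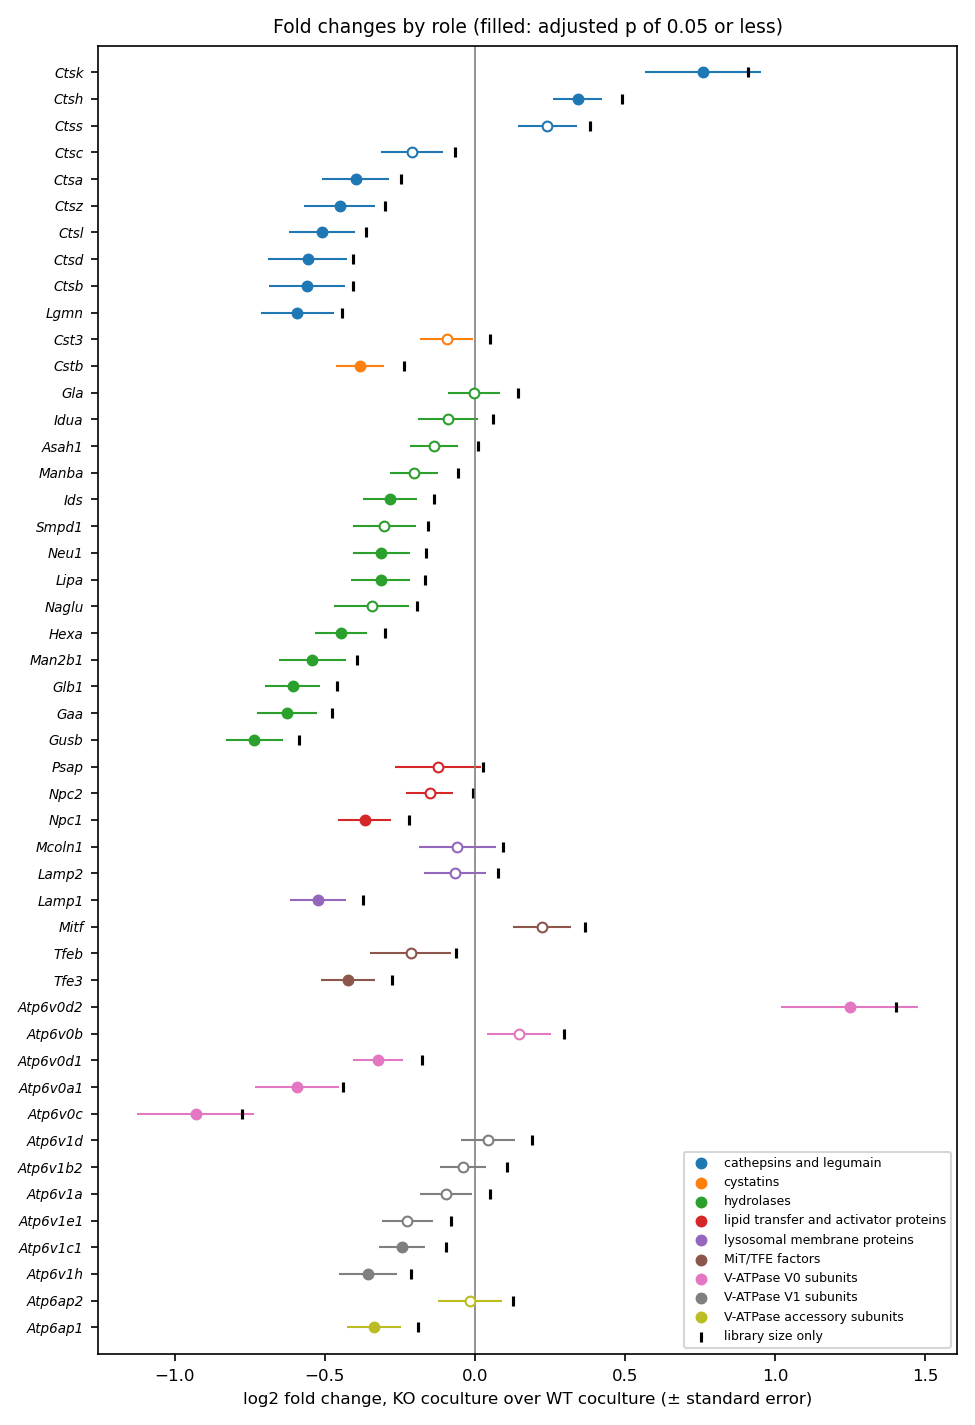
Log2 fold change, KO over WT, of the 48 genes by role, with TMM scaling (circles, bars one standard error, filled where the edgeR adjusted p was 0.05 or less) and with library totals alone (black ticks). The ticks lie about 0.15 to the right of the circles, *Atp6v0d2* at 1.25 is the farthest to the right and *Atp6v0c* at -0.93 the farthest to the left.

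The 3 MiT/TFE factors of the set did not move together. *Tfe3*, per length the most abundant of them (82.0 FPKM in WT, 68.1 FPKM in KO), stood at 285 and 241 CPM in WT and at 200, 194 and 194 CPM in KO and was called lower (log2 fold change -0.42, SE 0.090, edgeR adjusted p = 0.0074). *Tfeb* stood at 45.5 and 33.1 CPM in WT and at 34.0, 36.5 and 31.3 CPM in KO, with WT replicate 2 inside the range of the KO libraries (-0.21, edgeR adjusted p = 0.25). *Mitf* stood at 91.8 and 104 CPM in WT and at 122, 116 and 105 CPM in KO, without overlap but with its nearest libraries close together, and was not called (0.22, edgeR adjusted p = 0.11). *Tfec*, a further factor of the family outside the set, had mean levels of 58.7 CPM in WT and 60.2 CPM in KO. It was not called (0.03, edgeR adjusted p = 0.79) and is counted below among the genes of nutrient signaling. All of these are transcript levels. The proteins are known to be controlled largely by phosphorylation and by their movement into the nucleus, which RNA does not show.

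The promoters of the set were read for the E-box letters that these factors bind. RefSeq promoters (build GRCm38.p6, 250 bases before to 50 after the annotated start) were found for 39 of the 48 genes, and the 9 others were *Asah1*, *Atp6v0d2*, *Atp6v1b2*, *Atp6v1c1*, *Atp6v1h*, *Cstb*, *Ctsb*, *Ctsh* and *Npc1*. The letters CACGTG, the same on both strands, were present in 13 of the 39 genes (33.3%), beside 8.09% of the 27025 genes in the table and 11.7% of the 10063 tested genes with a promoter there. The longer TCACGTGA, which contains the shorter motif and also reads the same on both strands, was present in 6 (15.4%), beside 1.13% and 2.21%. Of the 21 matches, 14 lay within 100 bases before the start.

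Windows around a match are shown for 5 of the 8 genes with a match that were called lower, and for 2 that were not called, *Gla* and *Mcoln1*. Those of the other 3, *Ctsa*, *Ctsl* and *Atp6v0d1*, reach the annotated start or the edge of the promoter and are not shown. CACGTG is in capitals, each window is written 5′ to 3′ on the strand of its gene, and all lie before the annotated start. The *Ctsd* window is chr7:142387905-142387940 (minus strand), *Lgmn* chr12:102439121-102439156 (minus), *Gaa* chr11:119267808-119267843 (plus), *Glb1* chr9:114401015-114401050 (plus), *Gla* chrX:134601179-134601214 (minus), *Mcoln1* chr8:3500459-3500494 (plus) and *Lamp1* chr8:13159085-13159160 (plus). *Lamp1* is shown at greater length because 4 matches follow each other in 76 bases.
Ctsd: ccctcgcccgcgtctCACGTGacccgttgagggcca
Lgmn: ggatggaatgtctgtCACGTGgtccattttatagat
Gaa: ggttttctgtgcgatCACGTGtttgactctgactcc
Glb1: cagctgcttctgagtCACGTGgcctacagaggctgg
Gla: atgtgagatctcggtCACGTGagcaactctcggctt
Mcoln1: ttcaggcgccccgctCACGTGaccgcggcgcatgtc
Lamp1: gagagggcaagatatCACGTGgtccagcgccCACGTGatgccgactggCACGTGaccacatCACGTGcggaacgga

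Of the 13 genes with a match, 8 were called lower and 0 higher, and the 5 not called were *Gla*, *Naglu*, *Mcoln1*, *Atp6v0b* and *Atp6v1a*. Of the 26 genes with a promoter but no match, 11 were called lower and 1 higher. Over all genes 16.8% were called lower, and at a mean of 100 CPM or more 32.5%. The median log2 fold changes were -0.40 with a match and -0.22 without. *Gusb*, *Man2b1*, *Hexa*, *Tfe3*, *Atp6v0a1* and *Atp6v0c* were among those called lower without the letters in the window. These counts are a description and the difference between them was not tested.

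**Figure D4:**
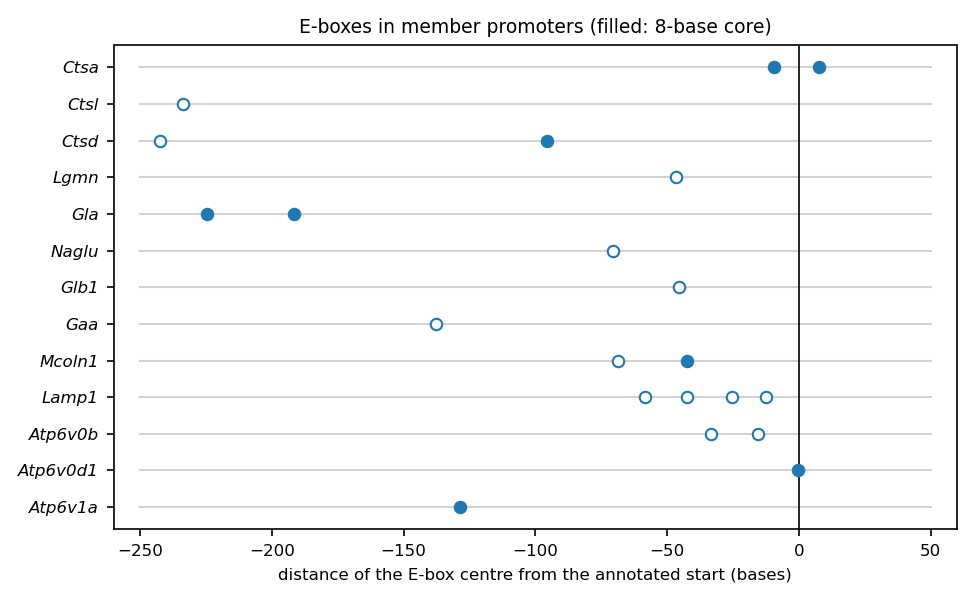
Position of each CACGTG match in the 13 promoters that hold one, as distance in bases from the annotated start (vertical line), with filled circles where the match is part of TCACGTGA. Of the 21 matches 14 lie within 100 bases before the start, 4 of them in *Lamp1*.

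The WT libraries were not at equal levels in this set. WT replicate 1 was above WT replicate 2 in 34 of the 48 genes, beside 55.0% of all genes, and the median log2 ratio was 0.17 beside 0.04. With WT replicate 2 as the only WT library the median fold change of the set was -0.22, and with WT replicate 1 as the only WT library it was -0.33. The number called lower was 23 and 29, beside 17% and 22.8% of all genes. *Gla*, *Psap*, *Mcoln1*, *Lamp2*, *Tfeb*, *Atp6v0b* and *Atp6ap2* changed sign between these settings, and none of them was called with all 5 libraries. *Ctsa*, *Ctsz*, *Lipa* and *Neu1* lost their call with WT replicate 2 alone, and *Ids* lost its call with WT replicate 1 alone. In both settings the spread comes from the 3 KO libraries and the lone WT library is assumed to vary like them.

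**Figure D5:**
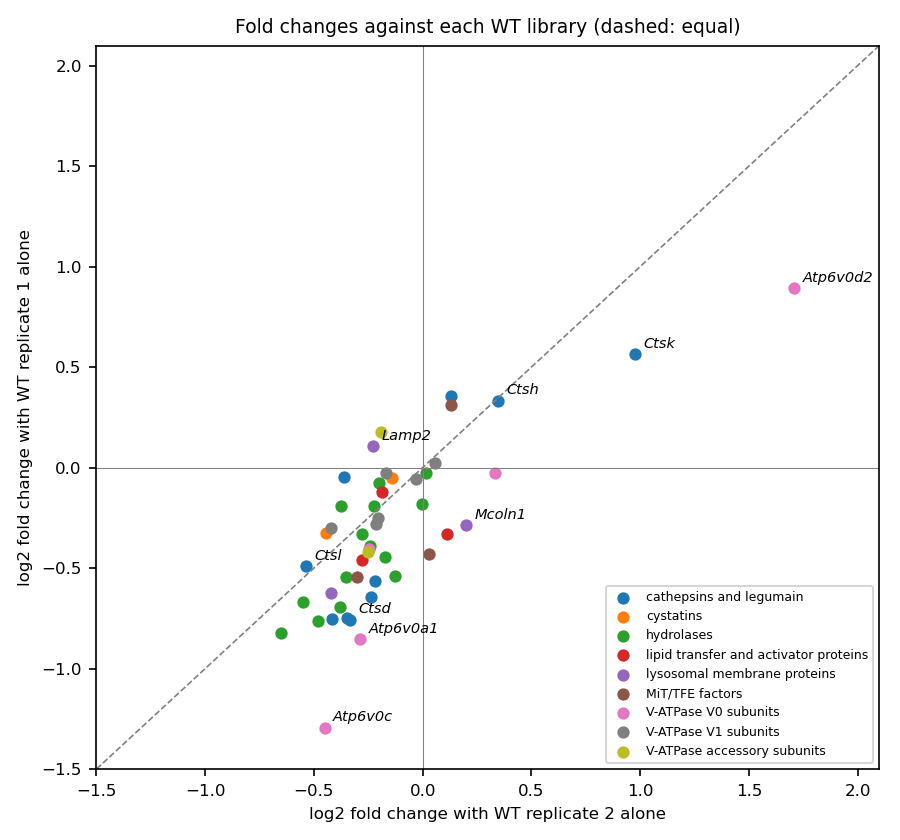
Log2 fold change of each of the 48 genes with WT replicate 2 as the only WT library (horizontal) against WT replicate 1 as the only WT library (vertical), colored by role, with the dashed line where both are equal. The median is -0.22 on the horizontal and -0.33 on the vertical axis, and *Atp6v0d2* lies at 1.71 and 0.89.

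*Ctsk* and *Atp6v0d2* are also genes of osteoclasts, and the other genes of that cell type are given beside them. Of 7 osteoclast and fusion genes tested, 2 were called higher and 3 lower, beside 14.9% and 16.8% of all genes. *Itgb3*, the integrin β3 chain, was higher (0.95) and *Mmp9*, a matrix metalloproteinase, was lower (-0.65). *Calcr*, the calcitonin receptor, had no count in any library.

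Of 96 further lysosomal genes listed, 87 were tested, of which 31 were called lower and 5 higher, with a median log2 fold change of -0.19. Over all genes 16.8% were called lower and 14.9% higher, and at a mean of 100 CPM or more 32.5% were called lower. Among 42 further hydrolases, proteases and cofactors, 21 were called lower and 2 higher. *Rnaset2b* fell most (-1.55, at 1.52 CPM in WT and 0.51 CPM in KO). *Hgsnat*, an acetyltransferase of heparan sulfate breakdown, and *Man2b2* followed at -1.02 and -0.80. *Igf2r*, a receptor that sorts mannose 6-phosphate enzymes to lysosomes, was at -0.66. *M6pr*, also such a receptor, was not called (-0.04). Among 24 further membrane proteins and channels, 6 were called lower, 1 was called higher and 17 were not called, with a median of -0.07. *Slc15a3*, a peptide and histidine transporter, was at -0.58 and *Slc38a9*, an amino acid sensor of mTORC1, at 0.52. Of 7 further V-ATPase subunits tested, 0 were called by edgeR, DESeq2 or limma, and at an unadjusted p under 0.05 the numbers were 0 with edgeR and DESeq2 and 1 with limma. Of 14 genes of nutrient signaling at the lysosome, 4 were called lower and 2 higher, again beside 16.8% and 14.9% of all genes, with *Rptor* of mTORC1 at -0.60, and *Flcn* and *Fnip1*, partners that act on the Rag GTPases, at 0.58 and 0.57.

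Most of the 48 genes were read from a single transcript. In 32 of them 1 transcript was listed, and in 10 of the 16 others a transcript held between 5% and 95% of the gene's counts. *Lamp2*, whose isoforms differ in their membrane tail, had 30.8% and 39.4% of its counts on a transcript of 3615 bases in WT and 37.4%, 36.3% and 36.3% in KO, within the WT range. For *Psap* the transcript of 2583 bases took 34.1% and 50.9% in WT and 55.3%, 59.2% and 47.5% in KO, so that the groups overlapped. *Lipa* had 9.54% and 7.59% of its counts on a transcript of 2987 bases in WT and 1.99%, 4.40% and 6.93% in KO, without overlap. *Lamp1* had 4.85% and 4.72% on a transcript of 2242 bases in WT and 3.78%, 3.81% and 4.24% in KO. Shares of a transcript were also apart in *Ctsa*, *Ctsc*, *Atp6v1h*, *Tfe3* and a minor form of *Lamp2*, and none of these differences was tested. In *Ctsa*, *Tfe3* and *Lamp2* the minor transcript concerned held under 5% of the gene's counts in every library. The groups overlapped in all transcripts of the other genes with more than 1 listed. With 2 against 3 libraries such separations also arise by chance, and their frequency over all genes was not computed. These shares are estimates that divide reads between transcripts with much sequence in common.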

How the data were processed

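The authors sequenced poly-A RNA on a BGISEQ-500 (paired-end) and aligned reads to GRCm38 with HISAT, and the submitters' notes name Bowtie2, RSEM, Bowtie and DESeq2. The study's methods give Bowtie2 for the expression values and both DESeq2 and PoissonDis for its comparison. The roles of RSEM and Bowtie are not given in the sources used here. The deposited tables hold an estimated count and an FPKM value per transcript, both made by the authors, with transcripts listed from 0.01 FPKM. Expected counts were summed per gene, rounded and tested with edgeR 4.0.16 (R 4.3.3) by its quasi-likelihood F test with TMM factors, filterByExpr and Benjamini-Hochberg adjustment over 12576 genes. A call is an adjusted p of 0.05 or less. Standard errors are the fold change over the root of F. FPKM were summed per gene, on the authors' scale, to compare levels between genes. Libraries held 14658694 to 20788373 counts. The code was tested on simulated data. Alternatives used DESeq2 1.42.0, limma 3.58.1, other scalings and filters, left-out libraries and a replicate block. Each other list was limited to 4 named genes, called, with a log2 fold change of 0.5 or more. *M6pr*, *Tfec* and *Tcirg1*, which were not called, were named besides. Values per library are given, in each role group, for up to 4 called genes with the largest change and the most abundant gene, and for the MiT/TFE factors and d subunits. The members and lists were chosen with earlier results of these data known. Exact permutation of 2 against 3 libraries cannot go below p = 0.1 and was not used.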

Additional observations from a re-analysis of the deposited data

How the results depend on the processing

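Of the 27 calls, 10 held in each of 13 refits (*Ctsk*, *Lgmn*, *Hexa*, *Gaa*, *Glb1*, *Gusb*, *Man2b1*, *Lamp1*, *Atp6v0c*, *Atp6v0d2*), and none of the 27 changed direction. For all 48 genes the counts called higher and called lower, each beside the share of all genes, were 4 (17.8%) and 20 (12.9%) with upper quartile factors, 6 (24%) and 13 (8.56%) with library totals alone, 4 (12.6%) and 24 (15.1%) with DESeq2, 5 (23.3%) and 12 (8.08%) with limma on log2(FPKM + 0.1), and 4 (22.8%) and 11 (8.04%) with limma on log2(FPKM + 1). They were 3 (12%) and 24 (12.8%) with no filter on low counts and 3 (15.9%) and 24 (16.9%) with at least 10 counts in every sample. Over single libraries left out they ranged from 3 to 5 higher and from 9 to 29 lower, the lowest without KO replicate 1, while the shares of all genes ranged from 8.73% to 19.1% higher and from 7.42% to 22.8% lower. Where a WT library is left out, the spread comes from the 3 KO libraries alone, so a call kept there is weak evidence of stability. A limit of 2-fold left 1 higher and 0 lower, and an adjusted p under 0.001 with a log2 fold change over 0.25 left 0 higher and 1 lower (*Gusb*).

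Cathepsins and legumain called lower numbered 4 with library totals alone and 3 with limma at either pseudocount, and 3 were called higher with upper quartile factors, library totals alone, DESeq2 and limma on log2(FPKM + 0.1). Over single libraries left out 1 to 6 were lower and 2 to 3 higher. The shares of all genes given above for each setting apply to this and the following groups. Hydrolases called lower numbered 5 with upper quartile factors, library totals alone and limma at either pseudocount, and 5 to 9 over single libraries left out. Of the V-ATPase subunits, library totals alone called 2 higher and 2 lower, limma called 2 lower on log2(FPKM + 0.1) and 1 lower on log2(FPKM + 1), and single libraries left out gave 1 to 2 higher and 1 to 7 lower. The 2-fold limit left 0 cathepsins in either direction, 0 hydrolases lower and 0 pump subunits lower. The stricter limit left 0 cathepsins in either direction, 1 hydrolase lower and 0 pump subunits in either direction. The cause of these shifts was not tested.

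Libraries that share a replicate number did not deviate together (correlations of -0.124 and -0.0504). With 2 WT libraries the WT deviations mirror each other, so these values are not separate checks. Whether the numbers pair the libraries is not known. A fit with the replicate number as a block called 2 of the 48 genes higher and 13 lower (9.67% and 8.95% of all genes), 1 cathepsin higher and 5 lower, 5 hydrolases lower, and 1 pump subunit higher and 2 lower. *Gla* had a log2 fold change of 0.047 in that fit with the block.

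Signs changed only in genes that were not called. With library totals alone, limma on log2(FPKM + 0.1) and limma on log2(FPKM + 1), in that order, the log2 fold changes were 0.050, 0.051 and 0.051 for *Cst3*, 0.14, 0.14 and 0.14 for *Gla*, 0.058, 0.058 and 0.055 for *Idua*, 0.0084, 0.012 and 0.011 for *Asah1*, 0.027, 0.040 and 0.040 for *Psap*, 0.077, 0.077 and 0.076 for *Lamp2*, 0.092, 0.11 and 0.11 for *Mcoln1*, 0.049, 0.052 and 0.051 for *Atp6v1a*, 0.11, 0.11 and 0.11 for *Atp6v1b2*, and 0.13, 0.14 and 0.14 for *Atp6ap2*. Upper quartile factors gave 0.053 for *Gla*, 0.017 for *Atp6v1b2* and 0.041 for *Atp6ap2*, and at least 10 counts in every sample gave 0.0097 for *Gla*. Over single libraries left out, the values ranged from -0.034 to 0.067 for *Gla*, -0.33 to 0.11 for *Psap*, -0.23 to 0.11 for *Lamp2*, -0.29 to 0.20 for *Mcoln1*, -0.43 to 0.028 for *Tfeb*, -0.025 to 0.33 for *Atp6v0b*, -0.057 to 0.0081 for *Atp6v1b2* and -0.19 to 0.18 for *Atp6ap2*.

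With 2 WT and 3 KO libraries the spread within groups rests on few values. All 48 genes passed the filter on low counts, and the lowest level in a WT library was 7.52 CPM (*Ctsk*).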
